A study of Mus musculus with 24 samples.

Results

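The nuclei described here are the astrocytes of the mouse amygdala, taken as the cell type that the submitters named NN-Astro in their single-nucleus RNA-seq and single-nucleus ATAC-seq tables. Each table gives counts summed over the nuclei of 1 cell type in 1 library. Members were every column of that type, from BL6 and from DBA, libraries 2 and 3. They held 3900 of 21648 nuclei in RNA and 146 of 19119 nuclei in ATAC. All animals were adult males of an inbred strain, BL6 or DBA, aged 10 to 16 weeks, with no treatment or engineered allele named in the labels. A replicate was the microdissected amygdala of about 2 animals combined in 1 tube, so animal-to-animal spread is averaged within a library. RNA nuclei were sorted to about 75% neuronal and 25% non-neuronal by NeuN staining, and ATAC nuclei were sorted without NeuN. Shares of nuclei are therefore those of a sorted sample, and neurons were 47.0% to 69.9% of the nuclei in the RNA tables. Methylation libraries of the series were not analysed here.

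Astrocytes are the glial cells that clear glutamate and GABA from around synapses, buffer potassium and water, supply metabolites to neurons and contact vessels and synapses with fine processes. They are joined into networks by gap junctions, and they differ between brain regions in transporters, receptors and secreted factors. In the amygdala they sit among the neurons of the circuits for fear and anxiety, and astrocytes respond to glucocorticoids and noradrenaline. Injury or inflammation moves them into reactive states marked by Gfap, Vim, Serpina3n and, in inflammatory forms, C3.

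RNA counts in the astrocyte columns were 4858018 and 4489811 in BL6 libraries 2 and 3, and 3752826 and 3957371 in DBA libraries 2 and 3. Those sums came from 1184, 1072, 632 and 1012 nuclei. DBA library 2 had the fewest nuclei and the most counts per nucleus, 5938 against 3910 to 4188 in the other RNA libraries. ATAC held 35, 49, 7 and 55 astrocyte nuclei in the same order. In ATAC, the column of DBA library 2 stood apart. At the starts of 8 astrocyte markers its counts summed to 91.4 CPM (counts scaled to the column's total), against 236 to 285 in the other 3 astrocyte columns. At the starts of 8 neuron markers it had 134 CPM, against 61.6 to 84.9 in the other astrocyte columns and 183 in pooled neurons. With 7 nuclei in that column no test of strain was made in ATAC, and its values are given beside those of the other columns. A further property touches every strain difference. Over all nuclei, 5314 genes had 0 counts in BL6 and at least 10 in DBA, while 285 had 0 in DBA and at least 10 in BL6. Whether both strains were counted against the same annotation is not given in the sources used here. Tests were therefore run on the 22144 genes with at least 10 counts in each strain over all nuclei. That filter drops genes with too few counts in BL6 or in DBA. It does not remove a difference in annotation, alignment or read assignment among the genes kept. The part of such differences in the strain results was not tested.

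Defining astrocyte genes were high in all 4 RNA columns of the cluster. Aqp4, the water channel of astrocyte endfeet, had 220.1 and 225 CPM in BL6 and 209 and 227 CPM in DBA, and the next type, NN-OPC (oligodendrocyte precursors), averaged 40.3 ± 8.93 CPM (SD, n = 4 libraries). Slc1a3, the glutamate transporter GLAST, had 1625 and 1850 CPM in BL6 and 1924 and 1784 CPM in DBA, against 825 ± 158 CPM (SD, n = 4) in NN-VLMC, the vascular leptomeningeal cells. Gja1, which encodes the gap-junction protein connexin 43, had 367 and 394 CPM in BL6 and 415 and 427 CPM in DBA. The nearest type for Gja1 was NN-Endo-VLMC at 323 ± 15.7 CPM (SD, n = 4), a smaller gap than for the other genes. Among the 19 types with enough nuclei in every library, astrocytes ranked first for all 3 markers, and the strains' libraries lay close together. NN-Endo-SMC-Peri, the endothelial and mural cells, and Exc-Strip2, an excitatory neuron type, were not among the types compared. These levels describe a cluster that its authors named from the same transcripts, so no test between types was made.

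**Figure D1:**
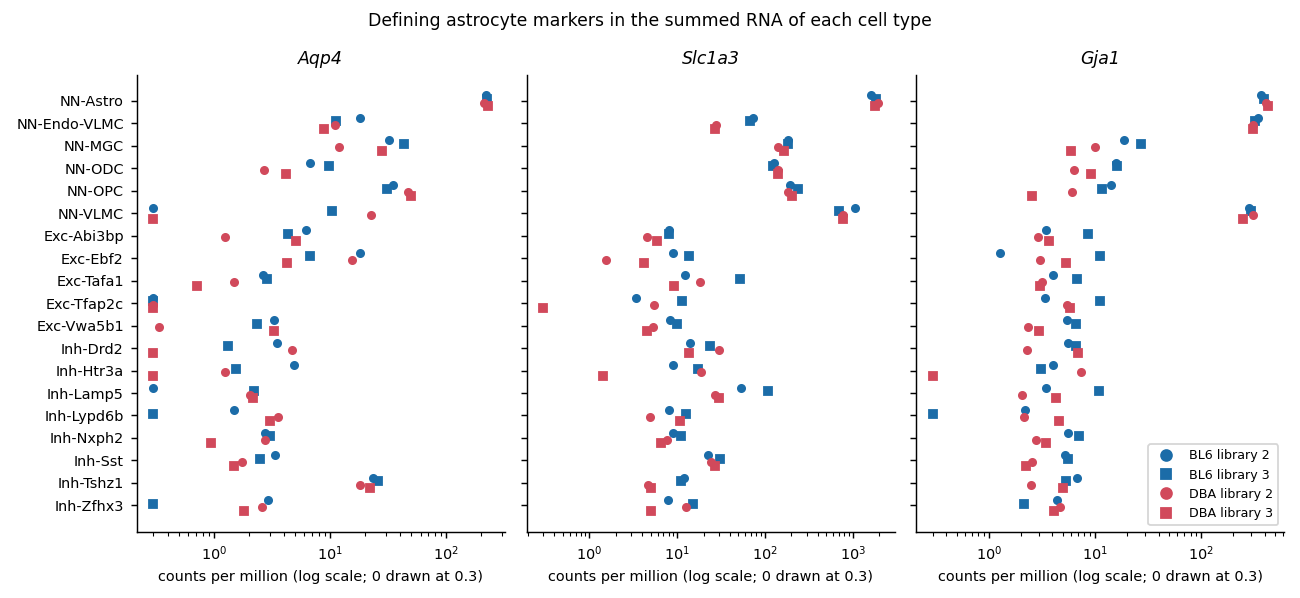
CPM on a log axis for Aqp4, Slc1a3 and Gja1 in the 19 cell types with enough nuclei in every library, 1 point per library, coloured by strain. The 4 astrocyte libraries lie at the right of each panel, and NN-VLMC and NN-Endo-VLMC come close for Gja1.

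Of 3033 genes with at least 50 CPM in every astrocyte library, 531 were higher in the lowest astrocyte library than in the mean of any other type compared. Types were compared only if every library held at least 10 of their nuclei. The endothelial and mural cells of NN-Endo-SMC-Peri and the neurons of Exc-Strip2 were not among them. For 25 of the 531 genes the ratio was over 10 times. Ratios are taken within a gene, so gene length does not enter. Grin2c, an NMDA-type glutamate receptor subunit, had 199.7, 278, 235 and 204 CPM in BL6 libraries 2 and 3 and DBA libraries 2 and 3. Its highest mean in another type was 3.29 CPM in Inh-Lypd6b. Aqp9, an aquaglyceroporin, had 57.8 to 64.0 CPM against at most 2.46 CPM elsewhere. Phkg1, a catalytic subunit of phosphorylase kinase, which starts glycogen breakdown, had 475 to 571 CPM against at most 21.7 CPM.

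Several others of the 20 genes with the largest ratios have known roles in astrocytes. Ntsr2, a neurotensin receptor, was 20.7 times higher in its lowest astrocyte library than in the next type, and the zinc transporter gene Slc39a12 19.1 times. Aldh1l1, the folate enzyme used to mark astrocytes, was 17.7 times higher, and Slc1a2, the main glutamate transporter GLT-1, 15.1 times. Slco1c1, a thyroid hormone carrier, and Acsbg1, a fatty-acid activating enzyme, were 15.1 and 15.04 times higher. These ratios hold among the types compared only, which left out the endothelial cells. Mlc1, a membrane protein of astrocyte junctions, was 14.1 times higher. The other named genes among the 20 were Ttll8, Pdzph1, Cyp4f15, Nwd1 and Atp13a4, and the remaining ones were Gm35552, Gm6145, 2900052N01Rik, Gm13872 and Gm973. Atp13a4 stood just inside the limit of 20 genes at 14.0 times and Gm28411 just outside at 13.1 times. Not every classic gene was highest here: Slc7a11, the cystine-glutamate exchanger, averaged 475 ± 149.7 CPM (SD, n = 4) in astrocytes and 2163 ± 583 CPM in NN-VLMC.

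Upstream sequence of a pair of these genes is shown because their starts carried an ATAC peak in astrocytes. Each run is the 250 bases before the annotated start in RefSeq on GRCm38.p6, the reference of strain C57BL/6J, read 5′ to 3′ on the gene's strand. Capitals mark an RFX half-site, GTTGCC or its complement GGCAAC, the letters bound by the RFX family to which astrocytic Rfx4 belongs. Grin2c lies on the minus strand at chr11:115267244-115267493 and Aldh1l1 on the plus strand at chr6:90550543-90550792.
Grin2c: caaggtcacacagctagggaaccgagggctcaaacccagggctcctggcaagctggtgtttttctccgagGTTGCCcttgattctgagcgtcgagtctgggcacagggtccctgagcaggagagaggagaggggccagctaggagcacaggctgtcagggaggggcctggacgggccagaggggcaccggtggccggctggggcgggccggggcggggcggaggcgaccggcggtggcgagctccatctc
Aldh1l1: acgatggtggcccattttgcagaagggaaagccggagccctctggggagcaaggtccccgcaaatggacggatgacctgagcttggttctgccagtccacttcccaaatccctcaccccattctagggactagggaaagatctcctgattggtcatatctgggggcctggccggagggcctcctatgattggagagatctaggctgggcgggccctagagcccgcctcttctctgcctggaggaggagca
3 short motifs were searched on both strands of such windows: an NFI half-site (TTGGCA or TGCCAA), a SOX core (ACAATG or CATTGT) and the RFX half-site. Of the 22 windows of the 20 genes, 5 (22.7%) held the NFI half-site, 3 the SOX core and 3 the RFX half-site. Among all 32851 windows, 12.3%, 10.7% and 10.4% did. Of 9 windows of the astrocyte marker list, none held the NFI half-site or the SOX core and 2 held the RFX half-site. A match describes letters and not a bound site.

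Accessibility at most of these starts was above that in neurons in the columns with enough nuclei. The peak at the Aldh1l1 start covered all 250 printed bases and had 35.5, 19.7 and 46.2 CPM in BL6 library 2, BL6 library 3 and DBA library 3, against 0.690 CPM in pooled neurons. DBA library 2 had 10.8 CPM there, from 2 counts. At Grin2c the peak overlapped 151 of the printed bases and had 28.0, 27.6 and 11.2 CPM against 4.30 CPM in neurons, with 5.38 CPM in DBA library 2. Acsbg1 had 46.6, 37.5 and 51.0 CPM against 0.806 CPM in neurons, and Mlc1 72.8, 43.4 and 57.3 CPM against 2.26 CPM. Of the 20 genes, 17 had a peak within 2 kb of an annotated start, and 14 of the 17 were above the neuronal value in all 3 of these columns. The exceptions were Ttll8, Gm35552 and Slc1a2, and the last had 4 astrocyte counts at its start in all. The same held for 7 of the 8 genes of the astrocyte marker list with such a peak and for 17 of 21 transcription factors. It held for 3 of 13 genes of the general reactive list, where only 5 starts had at least 10 astrocyte counts. Other lists ran from 9 of 9 lipid genes and 21 of 24 metabolic genes to 4 of 10 inflammatory and 1 of 7 injury genes. The share over all gene starts was not counted, so these counts are not read as a result about the lists. Neurons are not the nearest type for many genes. Of the 17 starts, 13 had an astrocyte mean over the 3 columns above the highest mean of any other type compared.

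Astrocytes made up 14.7% of RNA nuclei in BL6 library 2 (95% Wilson interval 13.9 to 15.4) and 24.2% in BL6 library 3 (22.98 to 25.5). DBA libraries 2 and 3 had 22.0% (20.6 to 23.6) and 16.1% (15.2 to 17.1). The ranges overlapped, and the means were 19.4% ± 6.76 in BL6 and 19.1% ± 4.19 in DBA (SD, n = 2 each; exact two-sided permutation p = 1). Among non-neuronal nuclei the shares were 40.1% and 45.7% in BL6 and 48.0% and 53.6% in DBA. Those ranges did not overlap, but the exact permutation p was 0.333, the smallest that 2 against 2 libraries allow. In ATAC the shares of all nuclei were 0.888%, 0.706%, 0.190% and 1.21%, and the groups overlapped (exact permutation p = 1). Neurons were 97.0% to 98.2% of the ATAC nuclei, so these low shares are those of a table almost wholly of neurons. Intervals cover counting error only.

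Strain differences within astrocytes were the study's design comparison, DBA against BL6. Of 14320 genes tested with edgeR's quasi-likelihood test, 1245 (8.69%) had a Benjamini-Hochberg adjusted p under 0.05, 512 (3.58%) higher in DBA and 733 (5.12%) lower. Scaling by total counts alone moved the median of all genes from -0.01 to -0.12 on the log2 scale, and 28.0% of its calls were higher, against 41.1%. The count was 529 without DBA library 2 and 711 without DBA library 3. DESeq2 called 707. Over every gene of the table, those counted in 1 strain included, 2597 were called and 62.9% of them were higher. The changes named first below are those of the largest size, and they are not tied to astrocyte functions by the rule that chose them.

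6 genes rose most in DBA astrocytes. Syt10, a calcium sensor of vesicle release, had 8.85 and 7.57 CPM in BL6 and 100.5 and 109.9 CPM in DBA, a log2 fold change of 3.80 (SE 0.17, adjusted p = 2.24e-11). Ttc12, a gene of dynein arm assembly, had 14.0 and 17.8 CPM in BL6 and 104 and 97.0 CPM in DBA (log2 fold change 2.79, SE 0.17, adjusted p = 1.02e-09). In all other nuclei together Ttc12 had 1.08 to 2.18 CPM in the 4 libraries. Stab2, a scavenger receptor for hyaluronan, had 6.38 and 10.5 CPM in BL6 and 222 and 255 CPM in DBA (log2 fold change 4.96, SE 0.19). Atp5o, a subunit of mitochondrial ATP synthase, went from 44.5 and 41.4 CPM to 881 and 956 CPM (4.55, SE 0.14). For Rnf121, a ring finger protein gene, the values were 35.2 and 33.4 CPM in BL6 and 569 and 585 CPM in DBA (4.1996, SE 0.14). Sfi1, a centrosome protein gene, had 41.4 and 72.2 CPM in BL6 and 618 and 669 CPM in DBA (3.63, SE 0.24). Neither pair of libraries overlapped the other for any of these genes, which follows from their choice as the largest called rises. The share over all genes tested was not counted.

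Most of those rises were not limited to astrocytes. All other nuclei had 4.36 and 5.33 CPM of Stab2 in BL6 and 195.7 and 220.4 CPM in DBA, and the interaction of strain with type was not called (adjusted p = 0.359). Atp5o went from 27.4 and 27.2 CPM to 386 and 399 CPM in those nuclei, a smaller ratio than in astrocytes (interaction 0.66, SE 0.15, adjusted p = 0.0318). Stab2 overlaps Gm16271 on the other strand, which had 0.412 and 0.223 CPM in BL6 astrocytes and 61.3 and 66.5 CPM in DBA. Rnf121 overlaps Xndc1 on the other strand, which went the other way, from 65.9 and 58.8 CPM to 14.7 CPM in both DBA columns. How reads over such overlaps were assigned is not given in the sources used here. Sfi1 belongs to a locus with near-identical copies, so its value is uncertain.

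The 6 largest falls reached levels near 0 in DBA. Fggy, a carbohydrate kinase gene, had 110.1 and 95.3 CPM in BL6 astrocytes and 2.13 and 1.01 CPM in DBA (log2 fold change -5.89, SE 0.26, adjusted p = 1.23e-11). Nmur2, a neuromedin U receptor, had 85.2 and 86.6 CPM in BL6 and 1.33 and 3.03 CPM in DBA (-5.14, SE 0.25). Cpne1, a calcium-dependent membrane-binding protein gene, had 64.2 and 80.4 CPM in BL6 and 0.533 and 0 CPM in DBA. Cpne1 shares 17084 bases with Rbm12 on the same strand, which was at 0 in both BL6 columns and at 6.93 and 7.08 CPM in DBA, so counts of the pair are uncertain. Cox16, an assembly factor of cytochrome oxidase, had 209.8 and 236 CPM against 8.53 and 4.80 CPM. Cox16 shares 126286 bases with Gm20498 on the same strand, so its counts are uncertain too. Gm20498 was at 0 in both BL6 columns and at 4.26 and 3.54 CPM in DBA. Zfp91, a zinc finger ubiquitin ligase, and Umad1 fell by 4.71 and 4.31 on the log2 scale. In all other nuclei Fggy had 53.7 and 44.2 CPM in BL6 and 2.27 and 2.30 CPM in DBA, and the values of Cpne1, Cox16, Zfp91 and Umad1 did not overlap between strains there either, with DBA the lower. These 12 were picked as the largest changes among called genes, and the 12 alternatives reuse the same libraries. That they kept their calls therefore adds no independent support. The part of annotation, alignment or read assignment in these 12 changes was not tested.

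**Figure D2:**
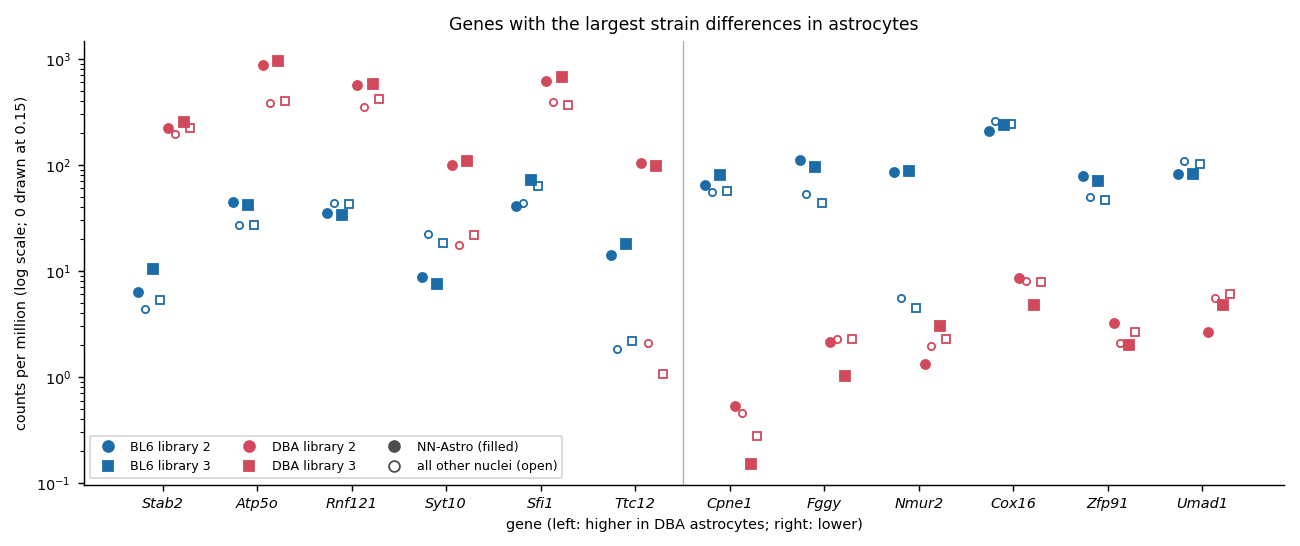
CPM on a log axis for the 6 largest rises and the 6 largest falls in DBA astrocytes, with filled points for the 4 astrocyte libraries and open points for all other nuclei. Syt10, Ttc12 and Nmur2 separate by strain mainly in the filled points, and the other genes shift in both.

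Fggy and Ttc12 are shown with their upstream sequence because the few ATAC columns at their starts lay apart by strain, which was not tested. Both runs are the 250 bases before the annotated start on GRCm38.p6, Fggy on the plus strand at chr4:95557257-95557506 and Ttc12 on the minus strand at chr9:49486226-49486475. The sequence is that of the BL6-type reference, since no DBA sequence was used here, and capitals mark an RFX half-site.
Fggy: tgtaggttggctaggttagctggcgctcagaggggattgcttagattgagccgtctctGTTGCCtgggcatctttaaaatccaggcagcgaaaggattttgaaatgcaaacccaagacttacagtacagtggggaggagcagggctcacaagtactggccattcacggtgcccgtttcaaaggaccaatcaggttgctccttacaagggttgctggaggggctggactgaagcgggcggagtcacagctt
Ttc12: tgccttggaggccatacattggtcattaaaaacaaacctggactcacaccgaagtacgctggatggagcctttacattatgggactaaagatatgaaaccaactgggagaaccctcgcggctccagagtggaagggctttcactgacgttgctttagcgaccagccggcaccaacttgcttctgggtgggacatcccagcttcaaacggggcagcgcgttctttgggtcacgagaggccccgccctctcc
The peak over the Fggy start held 22 and 31 ATAC counts in BL6 astrocytes and 1 count in each DBA column, or 41.0 and 61.2 CPM against 5.38 and 1.59 CPM. Pooled neurons gave 23.1 CPM in BL6 and 2.33 CPM in DBA at the same peak. At Ttc12 the peak had 11.2 and 19.7 CPM in BL6 astrocytes and 26.9 and 35.0 CPM in DBA, with 8.06 and 8.98 CPM in neurons of the strains. The BL6 and DBA columns did not overlap at either start, with or without DBA library 2, the column of 7 nuclei. No test was made.

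In the 12 functional lists together, 181 of 213 genes passed the filter on low counts, and 13 were called higher and 10 lower (12.7% beside 8.69% of all genes tested). Their median log2 fold change was 0.05, beside -0.01 over all genes. Calls per list, given below, stand beside the same 8.69% of all genes tested, and no list was tested as a set. None of the 10 astrocyte markers was called, with a median of 0.14. Only 4 of the 23 called members, Tnc, Unc13c, Myoc and Nnat, were called without each library in turn. The other 19 lost the call without at least 1 library.

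Transmitter uptake was tested through 12 genes, with 1 called higher and 1 lower. Slc7a11 had 527 and 663 CPM in BL6 and 343 and 366 CPM in DBA (log2 fold change -0.62, SE 0.13, adjusted p = 0.00337). Without BL6 library 3, DBA library 2 or DBA library 3 its adjusted p was 0.0526, 0.106 and 0.0534. Slc7a10, the exchanger Asc-1 for small neutral amino acids such as D-serine, had 239 and 269.5 CPM in BL6 and 334 and 289 CPM in DBA (0.42, SE 0.13, adjusted p = 0.0427). It lost the call in 6 of 12 alternatives, with adjusted p-values of 0.243 without BL6 library 2, 0.482 without DBA library 2 and 0.0502 without DBA library 3. The glutamate transporter Slc1a2 had 4662 and 5102 CPM in BL6 and 4571 and 4638 CPM in DBA (adjusted p = 0.891), and glutamine synthetase, Glul, 390.5 and 551 CPM against 363 and 287 CPM (adjusted p = 0.271).

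Of 16 genes for water, ions and gap junctions, 1 was called. Kcnj10, the inward rectifier Kir4.1 that takes up potassium, had 72.5 and 87.5 CPM in BL6 and 98.9 and 130.4 CPM in DBA (0.65, SE 0.15, adjusted p = 0.00804; 0.181 without DBA library 3). The markers Aqp4, Slc1a3 and Gja1 were not called, with log2 differences of 0.10 (SE 0.12), 0.22 (SE 0.12) and 0.27 (SE 0.12) and adjusted p-values of 0.72, 0.327 and 0.18. Aqp4 had the opposite sign, near 0, under scaling by total counts alone.

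Metabolic genes gave 1 call higher and 1 lower of 28. Slc2a1, the glucose transporter GLUT1, had 26.3 and 30.1 CPM in BL6 and 39.4 and 42.5 CPM in DBA (0.67, SE 0.17, adjusted p = 0.0133). Fabp5, a fatty-acid binding protein, had 45.1 and 49.4 CPM in BL6 and 29.3 and 28.0 CPM in DBA (-0.59, SE 0.16, adjusted p = 0.0242). Slc2a1 had adjusted p-values of 0.0855, 0.122 and 0.125 without BL6 library 2, DBA library 2 and DBA library 3. For Fabp5 they were 0.106, 0.162 and 0.212 without BL6 library 3, DBA library 2 and DBA library 3. None of the 16 lipid genes tested was called, beside 8.69% of all genes tested. Apoe, the main lipid carrier of the brain, had 3530 and 3355 CPM in BL6 and 3347 and 3789 CPM in DBA (0.18, SE 0.11), and Scd2, a fatty-acid desaturase, 545 and 521 CPM against 585 and 546 CPM (0.21, SE 0.12).

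Among 21 tested genes for synapse and matrix factors, 2 were higher and 1 lower. Tnc, the matrix protein tenascin-C, had 115 and 119 CPM in BL6 and 199 and 168 CPM in DBA (0.78, SE 0.13, adjusted p = 0.000372). Its antisense neighbour 8030451A03Rik, which overlaps 62285 bases, had 188 and 184 CPM in BL6 and 296 and 275 CPM in DBA. Nlgn3, a neuroligin that binds neurexins at astrocyte and synapse contacts, had 53.7 and 60.4 CPM in BL6 and 21.6 and 31.1 CPM in DBA (-0.98, SE 0.17, adjusted p = 0.000755; 0.0685 without DBA library 2). Nrcam, an adhesion molecule, had 879.99 and 959 CPM in BL6 and 1110.1 and 1108 CPM in DBA (0.40, SE 0.12). It lost the call without BL6 library 2, DBA library 2 and DBA library 3, at adjusted p-values of 0.281, 0.232 and 0.0961. Of 24 tested receptors only Gabrb1, a GABA-A subunit, was called, with 2426 and 2448 CPM in BL6 and 3245 and 3078 CPM in DBA (0.51, SE 0.11). Without BL6 library 2 and without DBA library 2 its adjusted p was 0.0625 and 0.0978. The oxytocin receptor gene Oxtr had at most 1.11 CPM in any astrocyte library, and the vasopressin receptor gene Avpr1a was listed at 0 in all 4.

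Of 26 transcription factors 1 was called. Zbtb20, a zinc finger factor of astrocyte development, had 2029 and 2101 CPM in BL6 and 2552 and 2424 CPM in DBA (0.40, SE 0.11, adjusted p = 0.0333), and it lost the call without each library in turn, at adjusted p-values of 0.0532 to 0.262. Sox9, Nfia and Rfx4 had log2 differences of 0.21, 0.15 and 0.18 and were not called. Genes listed as regional gave 3 higher and 1 lower of 12 tested. Nnat, neuronatin, had 868 and 635 CPM in BL6 and 1147 and 1139 CPM in DBA (0.73, SE 0.13, adjusted p = 0.00129). Unc13c, a priming protein gene high in cerebellar glia, had 47.1 and 45.0 CPM in BL6 and 90.6 and 92.7 CPM in DBA (1.12, SE 0.14, adjusted p = 1.22e-05). Itih3, a hyaluronan-binding serum protein gene, had 145 and 172 CPM in BL6 and 229 and 219 CPM in DBA (0.63, SE 0.13; adjusted p = 0.0865 without DBA library 2). Myoc, myocilin, had 6.79 and 13.6 CPM in BL6 and 0.533 and 0.253 CPM in DBA (-4.48, SE 0.63, adjusted p = 7.19e-05).

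Genes of reactive states gave 5 calls, and most had too few counts to test. Gfap had 49.6 and 58.1 CPM in BL6 and 27.4 and 46.2 CPM in DBA (-0.42, SE 0.20, adjusted p = 0.282), and C3 was listed at 0 in all 4 columns. Of 10 tested genes of the general reactive list 1 was lower. Osmr, the oncostatin M receptor, had 7.62 and 15.1 CPM in BL6 and 3.73 and 2.53 CPM in DBA (-1.72, SE 0.41, adjusted p = 0.0116). Of 6 tested inflammatory genes, C4b, a complement component, and H2-K1 were lower and H2-D1 was higher. C4b had 21.0 and 25.2 CPM in BL6 and 10.9 and 12.1 CPM in DBA (-0.87, SE 0.23). H2-D1 and H2-K1 are class I histocompatibility genes with near-identical relatives and strain alleles, so their split counts are uncertain. Of the injury list, S100a10 had 4.12 and 6.01 CPM in BL6 and 0.799 and 0 CPM in DBA (-3.47, SE 0.73). Osmr, C4b and H2-K1 each lost the call without BL6 library 3, DBA library 2 and DBA library 3, at adjusted p-values of 0.0957 to 0.181, 0.1104 to 0.232 and 0.107 to 0.233. H2-D1 lost it without BL6 library 2 (0.0656) and DBA library 3 (0.287), and S100a10 without DBA library 3 (0.106).

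The glucocorticoid list held 13 tested genes, 2 higher and 2 lower. Nr3c1, the glucocorticoid receptor, had 189 and 185 CPM in BL6 and 229.96 and 218 CPM in DBA (0.39, SE 0.12, adjusted p = 0.0465). Nr3c2, the mineralocorticoid receptor, had 389 and 402 CPM in BL6 and 471 and 479 CPM in DBA (0.39, SE 0.11, adjusted p = 0.0356). Both lost the call without each library in turn, at adjusted p-values of 0.0955 to 0.365 for Nr3c1 and 0.0642 to 0.225 for Nr3c2. Per1, a clock gene that glucocorticoids induce, had 41.4 and 62.6 CPM in BL6 and 18.4 and 28.3 CPM in DBA (-1.02, SE 0.24, adjusted p = 0.0226; 0.221 without DBA library 2). Hif3a, another gene that glucocorticoids induce, had 99.2 and 132.5 CPM in BL6 and 77.0 and 69.5 CPM in DBA (-0.53, SE 0.15, adjusted p = 0.0358). It lost the call without BL6 library 3 (0.294), DBA library 2 (0.168) and DBA library 3 (0.3005). Fkbp5, Tsc22d3 and Klf9, further targets, had log2 differences of -0.91, -0.45 and -0.22 and were not called. The other tested members not called ran from a log2 difference of -0.26 for Sgk1 to 0.30 for Pdk4.

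**Figure D3:**
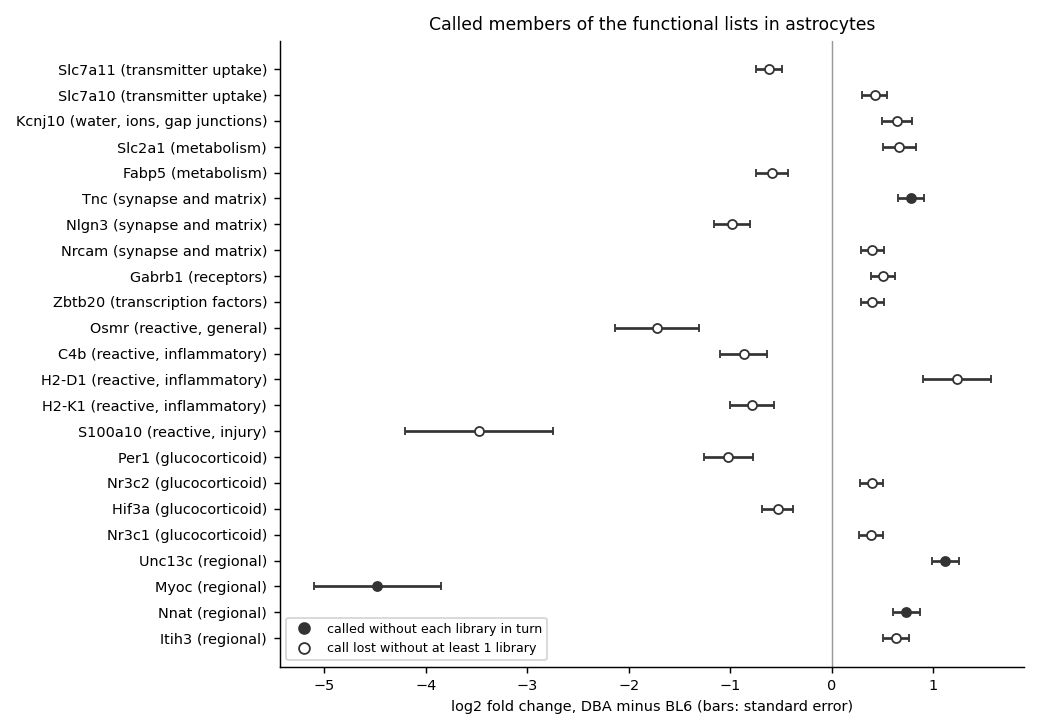
Log2 fold change (DBA minus BL6) with its standard error for the 23 called genes of the functional lists in astrocytes. Filled points mark Tnc, Unc13c, Myoc and Nnat, the 4 genes called without each library in turn, and open points the other 19.

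RNA of other cell types was present in the astrocyte columns at low level, and part of it moved with strain. Oligodendrocyte markers summed to 255 and 230.3 CPM in BL6 and 90.1 and 110.2 CPM in DBA, against 18054 and 17970 CPM in the oligodendrocytes of the strains, and none of the 8 was at 0 in any library. Among those tested, Mbp, Mobp and Mag were lower in DBA. Microglial markers summed to 265 and 239 CPM in BL6 and 133 and 126 CPM in DBA, again with none of 8 at 0. There the complement genes C1qa, C1qb and C1qc and the receptor gene Csf1r were lower in DBA, while P2ry12, which was not called, had 94.9, 68.4, 84.7 and 77.3 CPM. Neuron markers summed to 757, 414, 320.3 and 462 CPM, with 1 of 10, Slc17a7, lower. Endothelial markers summed to 19.1 and 18.9 CPM in BL6 and 7.46 and 7.33 CPM in DBA, and Tek alone had 9.06 and 9.13 CPM in BL6 and 1.07 and 1.01 CPM in DBA and was the only member called. In BL6 library 2 alone Ttr, a choroid plexus gene, stood at 293 CPM, against 0.533 to 2.45 CPM in the others. NN-ODC (oligodendrocytes) was 9.48% and 10.1% of BL6 nuclei and 7.81% and 4.59% of DBA nuclei. The part of this RNA in the strain differences was not tested.

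Whether a strain difference in astrocytes departed from that in all other nuclei of the same libraries was tested as an interaction. The other nuclei were summed over types, and their mix differed between libraries. Neurons were 63.4% and 47.0% of all nuclei in BL6 and 54.1% and 69.9% in DBA. Oligodendrocytes were 9.48% and 10.1% in BL6 and 7.81% and 4.59% in DBA. The part of this mix in the interactions was not tested. Of 19593 genes, 340 (1.74%) were called, 207 (1.06%) relatively higher in DBA astrocytes and 133 (0.679%) relatively lower. The count was 617 without BL6 library 3 and 150 by DESeq2. Total counts alone as scaling moved the median of all genes from -0.01 to -0.10, and gave 212 calls, with 45.3% relatively higher against 60.9%, and without BL6 library 3 and DBA library 3 that share was 37.6% and 43.8%.

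Syt10 had the smallest p. Its level in the other nuclei was 22.4 and 18.4 CPM in BL6 and 17.6 and 21.6 CPM in DBA, so the strains overlapped there, and the interaction was 3.83 on the log2 scale (SE 0.19, adjusted p = 1.58e-08). Fars2, the mitochondrial phenylalanine tRNA synthetase, had 251 and 258 CPM in BL6 astrocytes and 690.4 and 689.9 CPM in DBA. In the other nuclei it stayed between 117 and 127 CPM in all 4 libraries, and the interaction was 1.56 (SE 0.14). Rbm20, a splicing regulator, had 47.1 and 51.9 CPM in BL6 astrocytes and 95.1 and 79.1 CPM in DBA. Other nuclei went the opposite way, from 21.6 and 23.2 CPM to 9.31 and 8.39 CPM. Il33, an alarmin cytokine that astrocytes make, had 110.3, 110.03, 107.7 and 106 CPM in astrocytes. In the other nuclei it had 12.9 and 18.0 CPM in BL6 and 4.07 and 2.95 CPM in DBA, so the interaction of 2.18 (SE 0.19) came from those nuclei.

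The 5 genes relatively lower in DBA astrocytes fell in astrocytes themselves, each with an adjusted p under 0.05 for strain. Robo2, a receptor for Slit guidance cues, had 203 and 179.7 CPM in BL6 astrocytes and 41.6 and 55.1 CPM in DBA. The other nuclei had 582 and 442 CPM in BL6 and 521 and 557 CPM in DBA, with overlapping ranges (interaction -1.99, SE 0.17, adjusted p = 7.58e-06). Adam23, a non-catalytic protein of synaptic complexes with LGI1, had 177 and 175 CPM in BL6 astrocytes and 51.2 and 52.1 CPM in DBA, and 148 to 177 CPM in the other nuclei (interaction -1.72, SE 0.15). Fam163a had 55.8 and 76.8 CPM in BL6 astrocytes and 11.7 and 8.09 CPM in DBA, while the other nuclei had 2.80 and 2.92 CPM in BL6 and 5.67 and 5.06 CPM in DBA. Nmur2 had 4.47 to 5.53 CPM in the other nuclei of BL6 and 1.95 to 2.26 CPM in those of DBA, a smaller fall than in astrocytes (interaction -3.93, SE 0.34). Nxpe2 had 126 and 99.8 CPM in BL6 astrocytes and 30.6 and 27.8 CPM in DBA, with 39.9 to 44.2 CPM elsewhere. It overlaps Nxpe4 on the other strand, with 115 and 107 CPM in BL6 astrocytes and 74.6 and 82.6 CPM in DBA. All 10 named genes kept the call under every alternative, with a highest adjusted p of 0.00116. They were picked by the smallest p in the same libraries, so this adds no independent support.

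**Figure D4:**
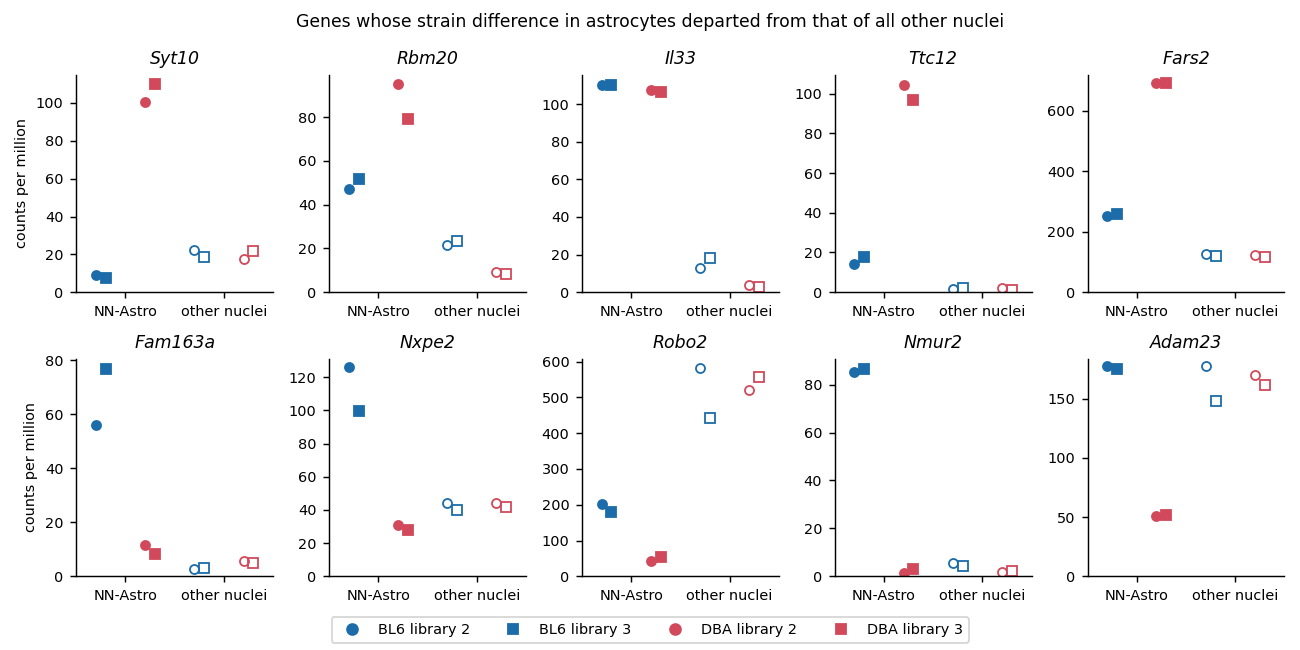
CPM on linear axes from 0 for the 10 genes named by the interaction test, in astrocytes (filled) and all other nuclei (open), 1 point per library. Fars2, Robo2 and Adam23 separate by strain in the filled points and overlap in the open ones, and Il33 separates in the open points.

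Against the oligodendrocytes, 344 of 14672 genes (2.34%) were called, 192 (1.31%) relatively higher in DBA astrocytes and 152 (1.04%) relatively lower. The count was 149 without DBA library 2, 214 without DBA library 3, 222 without BL6 library 2 and 67 by DESeq2. Arhgap26, a GTPase-activating protein gene, had 272 and 302 CPM in BL6 astrocytes and 94.3 and 88.9 CPM in DBA. In oligodendrocytes it moved in the opposite direction, from 17.4 and 15.6 CPM to 54.3 and 46.4 CPM (interaction -3.24, SE 0.25). Fgf1 and Gm5820 lie within or across Arhgap26, and Gm5820 had 70.4 and 90.2 CPM in BL6 astrocytes and 3.20 and 3.79 CPM in DBA. Agmo, an ether lipid monooxygenase, likewise went from 195 and 181 CPM to 119 and 91.0 CPM in astrocytes and from 65.2 and 64.2 CPM to 169 and 152 CPM in oligodendrocytes. Efemp1, a fibulin of the matrix, had 15.03 and 18.7 CPM in BL6 astrocytes and 34.4 and 28.6 CPM in DBA. In oligodendrocytes it had 43.0 and 32.4 CPM in BL6 and 0.905 and 0 CPM in DBA. Fcho1, an endocytic adaptor, had 3.73 to 6.82 CPM in astrocytes of both strains, and went from 4.45 and 4.54 CPM to 180.1 and 172 CPM in oligodendrocytes. Atp5o and Rnf121 rose in both types and more in astrocytes, with interactions of 2.27 (SE 0.20) and 2.25 (SE 0.21).

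Against the oligodendrocyte precursors, 201 of 14779 genes (1.36%) were called, 103 (0.697%) relatively higher and 98 (0.663%) relatively lower. The count was 74 without BL6 library 2, 109 without BL6 library 3 and 43 by DESeq2. Total counts alone gave 209, with 40.7% relatively higher against 51.2%. Inpp4b, a phosphoinositide phosphatase, had 70.8 and 60.4 CPM in BL6 astrocytes and 111 and 99.8 CPM in DBA, and in the precursors it went from 642 and 682 CPM to 149.5 and 158 CPM (interaction 2.85, SE 0.15). Csnk2a2, a casein kinase subunit, had 45.7 to 59.2 CPM in astrocytes, and 294 and 290.4 CPM in BL6 precursors against 53.4 and 46.0 CPM in DBA. Fam163a fell in astrocytes and had 13.8 and 9.91 CPM in BL6 precursors and 71.0 and 69.6 CPM in DBA (interaction -5.19, SE 0.29). Fars2 had 106 to 126 CPM in the precursors of both strains (interaction 1.52, SE 0.15). The myelin gene Mbp had an interaction of -2.88 (SE 0.19), and in astrocytes it belongs to the oligodendrocyte markers whose sum was lower in DBA.

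By function, the 12 genes of transmitter uptake gave 1 interaction call against all other nuclei, beside 1.74% of all genes tested, and it was Slc7a10, relatively higher in DBA astrocytes. The list for water, ions and gap junctions gave 3 of 16, Kcnj10, Mlc1 and Hepacam, all relatively higher. Metabolic genes gave 6 higher and 1 lower of 28, and receptors 4 higher of 27. Synapse and matrix factors gave 3 higher of 23, regional genes 3 higher and 1 lower of 12, lipid genes 1 higher of 17 and transcription factors 1 higher of 26. The 3 reactive lists and the glucocorticoid list, with 13, 12, 9 and 14 genes tested, gave no call, which is near the share of 1.74% over all genes. The medians of the lists for uptake, water and ions, metabolism and receptors were 0.23, 0.52, 0.32 and 0.34, beside -0.01 over all genes tested. RNA of the astrocyte markers was also found in the other nuclei, at 512 and 796 CPM in sum in BL6 and 692 and 568 CPM in DBA. Among those, Gja1 had 6.75 and 14.9 CPM in BL6 and 7.90 and 5.16 CPM in DBA. Of the neuron markers, Nrgn, Gad2 and Slc17a7 were called relatively lower in DBA astrocytes, and of the oligodendrocyte markers Mbp, Mag and Mobp were against the oligodendrocytes. The part of that RNA in the interactions was not tested.

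At gene starts, 25 of the 35 named genes called for strain in RNA had a peak with at least 10 astrocyte ATAC counts. Accessibility pooled by strain pointed the same way as RNA for 15 of them and the opposite way for 10. The columns of the strains did not overlap for 11 of the 25, 6 of these in the direction of the RNA. Without DBA library 2, which leaves 1 DBA column, they did not overlap for 20 of the 25, 11 of these in the direction of the RNA. These counts are a description of few columns. No share over all gene starts was counted beside them, so they are not read as a result about these genes. Nnat had 11.2 and 7.90 ATAC CPM in BL6 and 26.9 and 28.7 CPM in DBA, and Slc7a11 had 35.5 and 47.4 CPM in BL6 and 10.8 and 28.7 CPM in DBA, both in the direction of the RNA. Atp5o and Rnf121, far higher in DBA RNA, had lower start accessibility in DBA columns, with 31.7 and 37.5 CPM against 21.5 and 30.3 CPM for Atp5o and 44.8 and 51.3 CPM against 37.6 and 33.5 CPM for Rnf121. Kcnj10 was open in astrocytes of both strains at 48.5, 47.4 and 54.2 CPM in the columns other than DBA library 2. Neurons had 4.05 CPM there, and NN-OPC, the highest other type, averaged 25.7 CPM.

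**Figure D5:**
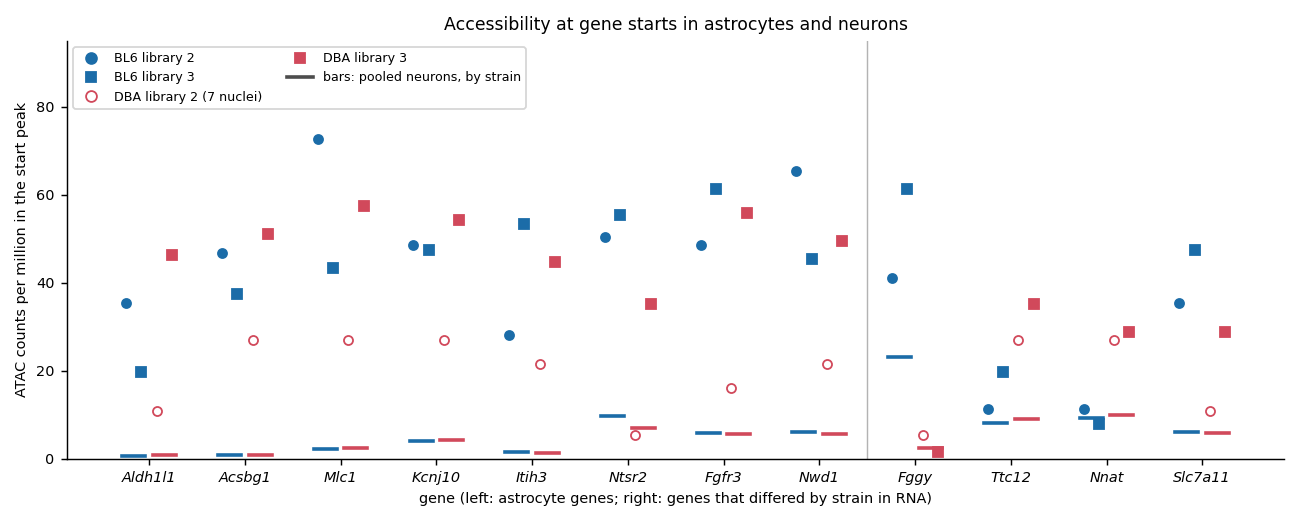
ATAC CPM in the peak at the start of 12 genes for the 4 astrocyte columns, with bars for neurons pooled by strain and an open point for DBA library 2. Astrocyte genes lie above the neuron bars in the 3 columns with filled points, and Fggy is low in both DBA columns and in DBA neurons.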

How the data were processed

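Per the labels' protocols and the submitters' processing notes, the authors sequenced single-nucleus RNA and ATAC libraries and processed them with Cell Ranger 6.0.2, Cell Ranger ATAC 2.0.0 and Seurat 4.0.5 on mm10. They deposited raw counts summed per cell type and library, per the file headers; names and filters of nuclei are the authors', and the tables hold no barcodes, so shared barcodes and doublets were not counted. The library numbers 2 and 3 matched no single sample label, so columns were used by strain. Of the value columns, 7, all of the type Neuronal-Aldoa-Cst3, were not used and are not part of all other nuclei. CPM was computed per column.

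Members and gene lists were chosen with earlier results of these data known. Strain (DBA minus BL6) and strain by type interactions, with library as a block, were tested with edgeR 4.0.16 (R 4.3.3; quasi-likelihood, TMM, filterByExpr, Benjamini-Hochberg adjusted p under 0.05) on genes with at least 10 counts in each strain. Replicates are pools of about 2 animals. Shares were tested with exact permutation (scipy 1.17.1). On simulated counts, the strain test recovered 63% of 2-fold and 93% of 4-fold changes, with 8.77% of calls false. For the interactions the values were 44%, 68% and 7.44% against all other nuclei, 31%, 61% and 4.17% against oligodendrocytes and 34%, 73% and 2.73% against precursors. The tests were repeated with DESeq2 1.42.0, with each library left out, with other scaling (RLE, or totals only), unfiltered, and over every gene; the strain test also with thinned columns and a replicate block.

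Named were the 6 largest rises and falls at a mean log2 CPM of at least 5 among called genes with non-provisional symbols, up to 4 called members of each list by p (otherwise up to 2 by CPM), Aqp4, Slc1a3 and Gja1, the 5 interaction genes each way by p against all other nuclei and 3 each way against the other types, and the 20 genes with the largest ratio to other types at 50 CPM or more. Overlapping genes, genes at list limits and the other list and marker genes given with values were named after their values were seen. Some results are not reported here. Peaks were assigned to starts within 2 kb, and the strain test in ATAC was not made because 1 column had 7 nuclei.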

Additional observations from a re-analysis of the deposited data

Results flagged for a closer look

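Astrocytes and other nuclei of the same libraries differed in their strain effect, by a test of the difference itself (edgeR's quasi-likelihood test, log2, positive where DBA astrocytes were relatively higher), for the genes listed here. Against all other nuclei the difference was 3.83 for Syt10, 3.18 for Ttc12, 2.24 for Rbm20, 2.18 for Il33 and 1.56 for Fars2. It was -3.93 for Nmur2, -3.53 for Fam163a, -1.99 for Robo2, -1.90 for Nxpe2 and -1.72 for Adam23. Against oligodendrocytes it was 7.11 for Efemp1, 2.27 for Atp5o, 2.25 for Rnf121, -5.33 for Fcho1, -3.24 for Arhgap26 and -2.17 for Agmo. Against oligodendrocyte precursors it was 2.85 for Inpp4b, 2.34 for Csnk2a2, 1.52 for Fars2, -5.19 for Fam163a and -2.88 for Mbp. These genes were picked by rank of p, so the sizes describe the extremes of each test. All other nuclei are a sum over types whose mix differed between libraries, and its part in these values was not tested. For Il33, Fcho1 and Csnk2a2 the strain difference within astrocytes was not called, with adjusted p-values of 0.778, 0.918 and 0.644.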

How the results depend on the processing

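The strain count of 1245 became 707 with DESeq2 and 2597 over every gene, and leaving out 1 library gave 529 to 1503. Against all other nuclei, 340 became 212 with total counts alone, 547 with no filter, 150 with DESeq2 and 350.0 to 617 without 1 library. Against oligodendrocytes, 344 became 67 with DESeq2 and 149 to 399 without 1 library. Against precursors, 201 became 329 with no filter, 43 with DESeq2 and 74 to 287 without 1 library. The DBA minus BL6 difference in RNA share, -0.353 points, was 7.93 among non-neuronal nuclei and -5.14 to 4.43 without 1 library (4.43 without BL6 library 3, 2.61 without DBA library 3). In ATAC, -0.0966 became -0.607 to 0.414, the last without DBA library 2. Aqp4, not called, was -0.0035 with total counts alone. Of the single-gene strain values under alternatives, 412 kept direction and side of the threshold, 67 lost the call and 1 turned. The interaction values of named genes, 90 against all other nuclei and 54 against each other type, kept both. The cause of these shifts was not tested, beyond the smaller number of samples or other set of genes.

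The replicate block by library number gave 1209 strain calls and lost Slc7a10, Nrcam, Zbtb20, Nr3c2 and Nr3c1. Same-numbered libraries had deviations correlated at -0.193 over 9474 genes, and a crossed block, added after seeing the data, gave 1844 calls. ATAC strain tests and their alternatives were not run. With 2 pools per strain, spread rests on 2 residual degrees of freedom and moderation across genes, and astrocyte ATAC depth limits start values to few counts per column.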
